A study of Mus musculus with 28 samples.

Results

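The wall of the lateral ventricle that faces the striatum was compared between old and young mice as whole tissue. It holds the ependymal zone and the subependymal or subventricular zone (EZ-SEZ/SVZ). RNA was sequenced from C57BL/6 mice of 18 months and of 3 weeks, with 3 samples per age, and these 6 samples are part of a series of 28 samples whose others are single cells. The mice carried no transgene or treatment according to the labels, and they came from more than 1 supplier, with no statement of which supplier gave which age. The study describes dissected tissue and total RNA, whereas the extraction text in the labels, shared with the single cells, describes sorting and Smart-seq2, so how these libraries were prepared could not be settled. The labels do not say whether a sample is 1 animal or a pool, so p-values measure the spread between these samples. Members were all genes of the deposited table with at least 1 FPKM (a fragment count corrected for transcript length and for the depth of the sample) in 3 or more of the 6 samples, which were 12287 of 36358 genes. A gene that reached 1 FPKM only in the samples of 1 age passed too, through the age where it was high. At the edge of this choice, 227 genes passed at under 1.1 FPKM and another 227 missed it at 0.9 FPKM or more.

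Stem cells of this wall give rise to transit-amplifying cells, which divide fast and become neuroblasts that migrate to the olfactory bulb, and a smaller output feeds the oligodendrocyte lineage of the nearby white matter. At weaning age the rodent forebrain is also still laying down myelin, the lipid-rich sheath that oligodendrocytes wrap around axons. The ventricular surface is lined by ependymal cells, whose motile cilia move the cerebrospinal fluid, and microglia are the resident macrophages. In whole tissue, fewer cells of a type and less RNA per cell cannot be told apart.

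The labels call the material SVZ tissue and name its source as adult neural stem cells, and the markers measured were those of the whole wall. The ependymal regulator *Foxj1* was at 42.5 to 48.3 FPKM at 18 months and 39.9 to 54.7 at 3 weeks, and the neuroblast gene *Dcx* was above 4 FPKM in every sample. RNA of the adjoining striatum was abundant, with *Ppp1r1b*, the dopamine signalling protein DARPP-32 of striatal projection neurons, at 1201 to 1460 FPKM at 18 months and 401 to 937 at 3 weeks. Summed over its 27 genes, the striatal list reached 3831 to 3924 FPKM in the samples of 18 months and 2349 to 3357 in those of 3 weeks, whereas 20 genes of cortical excitatory neurons summed to 1084 to 1317 and 1357 to 1791 FPKM. The part that the plane of dissection has in the results was not tested. *Xist*, transcribed from the inactive X chromosome, was at 22.5 to 73.9 FPKM in all samples, and the Y-linked gene *Eif2s3y* was at 0.134 FPKM or less.

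The depth, estimated from the FPKM worth of 1 fragment, was 20200000 to 22200000 fragments at 18 months and 18400000 to 20600000 at 3 weeks, and 1 fragment in a transcript of 1 kb was worth 0.045 to 0.054 FPKM. Samples of 3 weeks correlated with each other at r = 0.909 to 0.916 over the tested genes, those of 18 months at 0.889 to 0.9, and samples of different ages at 0.861 to 0.894. Replicate 1 of 18 months lay apart from the other two of its age. It correlated at 0.894 with replicate 3 of 3 weeks, against 0.892 and 0.889 with its own group, and lay at 9.01 on the first principal component, against 42.6 and 43.6 for replicates 2 and 3. Total counts are therefore also given without it.

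**Figure D1:**
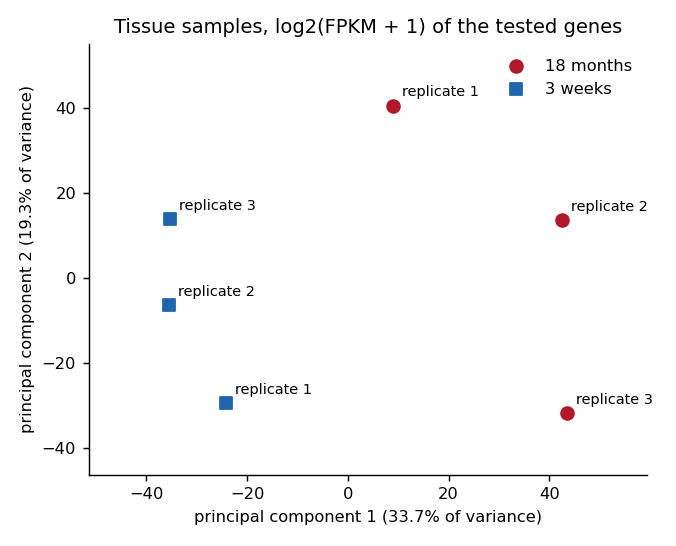
Principal components of the 6 tissue samples, from log2(FPKM + 1) of the tested genes, with component 1 (33.7% of the variance) on the x axis and component 2 (19.3%) on the y axis. The ages separate along component 1, and replicate 1 of 18 months lies between the groups.

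Exact zeros in this table need care. Some genes with few exons were listed at 0 in 1 sample and high in the next sample of the same age. *Sox2*, the stem cell transcription factor, which has 1 exon, was listed at 0, 0 and 40.8 FPKM at 18 months and at 0, 54.0 and 44.3 FPKM at 3 weeks. *Olig1*, a transcription factor of the oligodendrocyte lineage, was listed at 0 in all 6 samples although other genes of that lineage were abundant. Among protein-coding genes that reached 5 FPKM at 18 months, 55.4% of 101 genes with 1 annotated exon differed more than 8-fold between samples of that age, against 25.7% of 214 genes with 2 or 3 exons and 2.15% of 7410 genes with more. At 3 weeks the shares were 48.1% of 106, 17.8% of 208 and 2.34% of 7174 genes. A value of 0 is therefore reported only as listed at 0, and values of 1-exon genes are marked as such.

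The ages were compared gene by gene in limma, on a scale of log2(FPKM + 1), and a gene was called at a Benjamini-Hochberg adjusted p under 0.05 over all tested genes. Every log2 fold change below is 18 months minus 3 weeks on this scale, where low genes appear to change by less than they do, and a value in parentheses after a gene is this log2 fold change. There were 605 calls, or 4.92% of the tested genes, of which 297 (2.42%) were lower and 308 (2.51%) higher at 18 months. The called genes had absolute log2 fold changes from 0.45 to 5.66, with a median of 0.96, and standard errors from 0.08 to 0.67 with a median of 0.13. In 4070 genes (33.1%) the 3 samples of 1 age did not overlap those of the other, with 1504 (12.2%) lower and 2566 (20.9%) higher at 18 months. The median log2 fold change of all tested genes was 0.089, and TPM scaling moved it to 0.132. The balance of directions turned with the scaling, with 251 lower and 320 higher under TPM scaling and 346 lower and 245 higher under quantile normalization. Leaving out replicate 1 of 18 months gave 719 calls (320 lower, 399 higher). Leaving out replicate 2 or 3 of that age gave 185 and 258, and leaving out replicates 1 to 3 of 3 weeks in turn gave 199, 134 and 195.

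**Figure D2:**
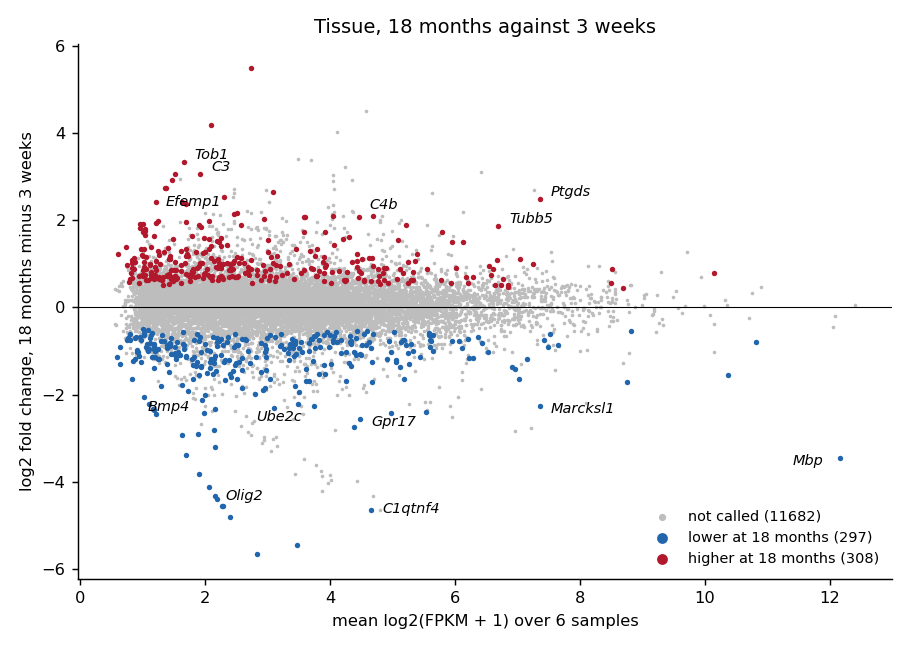
Log2 fold change (y axis, 18 months minus 3 weeks) against the mean log2(FPKM + 1) of the 6 samples (x axis) for each tested gene, with the 297 genes called lower in blue, the 308 called higher in red and the others in grey. *Mbp* is the called gene farthest to the right, with a log2 fold change of −3.44, and *Marcksl1* is a further abundant gene that was lower.

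The steepest declines among protein-coding genes with no zero were in a mixed group of genes. *C1qtnf4*, which encodes a secreted protein with C1q and tumour necrosis factor-like domains (chromosome 2, 90885860 to 90890525 of GRCm38, 2 exons), was at 4.73, 2.17 and 6.17 FPKM at 18 months and at 113, 119 and 145 FPKM at 3 weeks. The ages were far apart, and its log2 fold change was −4.63 (standard error 0.32, Benjamini-Hochberg adjusted p = 0.0026 by limma). *Nmnat2*, the NAD-synthesizing enzyme that maintains axons, fell from 22.7 to 23.6 FPKM at 3 weeks to 3.34 to 5.30 FPKM at 18 months (log2 fold change −2.22). *Myoc*, the extracellular glycoprotein myocilin, fell from 7.19 to 9.85 FPKM to 0.379 to 0.996 FPKM (log2 fold change −2.42), and *Cldn12*, a tight junction claudin, from 6.79 to 14.8 FPKM to 0.168 to 2.28 FPKM (log2 fold change −2.81, adjusted p = 0.0386 from limma). The 15 genes with the largest declines also held *Stum*, the zinc finger gene *Zbtb12*, *Cdr2l*, *1700016K19Rik* and the endosomal GTPase gene *Rab7b* (log2 fold changes −3.20 to −2.01), and the histone, mitotic, neuroblast and oligodendrocyte genes described below.

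The 15 largest increases were led by *C3*, described with the immune genes. *Sbsn*, which encodes the secreted epithelial protein suprabasin, was at 16.9, 23.5 and 20.6 FPKM at 18 months and at 2.88, 0.97 and 4.16 FPKM at 3 weeks (log2 fold change 2.64). *Abca8a*, a lipid transporter of the ABC family, rose from 0.859 to 1.31 FPKM at 3 weeks to 9.13 to 12 FPKM at 18 months (log2 fold change 2.52, adjusted p = 0.002 from limma). *Scn3b*, a beta subunit of voltage-gated sodium channels, rose from 6.01 to 7.73 FPKM to 30.3 to 35.4 FPKM, and *Cbx6*, a chromobox protein of Polycomb complexes, from 7.53 to 15.5 FPKM to 45.6 to 58.4 FPKM, each with a log2 fold change of 2.10. *Hsf4*, a heat shock transcription factor, had nearly no spread within either age, at 0.931 to 0.987 FPKM at 3 weeks and 6.01 to 6.59 FPKM at 18 months (log2 fold change 1.88, standard error 0.10). The kinase gene *Nek7*, the protease inhibitor gene *Serpinb1a*, the transporter gene *Slc4a11* and *D17H6S53E* completed this group outside the lists below, with log2 fold changes from 1.96 to 2.38.

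Genes were then described by lists of pathways and cell types, each set against the 4.92% called and the median of 0.089 over all tested genes, and, for ages that did not overlap, against the 12.2% lower and 20.9% higher over all tested genes. The lists held 1723 distinct genes, of which 1148 were tested, 287 were under the FPKM limit and 288 were not analysed here. Calls in a list are also given with each sample left out, as left-out counts in the order of replicates 1, 2 and 3 of 18 months and then replicates 1, 2 and 3 of 3 weeks. Where a list had 1 or 2 calls in a direction, 24 of 27 such counts were 0 without at least 1 of the 6 samples.

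Genes of mitosis were lower as a group. Of 53 tested members 33 were called lower and none higher, 52 had a log2 fold change below 0, and in 46 all samples of 18 months lay below all those of 3 weeks, as in 12.2% of all tested genes. The median log2 fold change was −1.11, between −1.21 and −1.06 when each sample was left out. The left-out counts called lower were 28, 18, 28, 19, 15 and 21. *Ube2c*, the ubiquitin-conjugating enzyme of the anaphase-promoting complex, was at 5.2, 5.11 and 5.09 FPKM at 18 months and at 25.3, 29.1 and 31.2 FPKM at 3 weeks (log2 fold change −2.26, standard error 0.12, adjusted p = 0.00125 from limma). *Ccna2*, cyclin A2, fell from 12.9 to 13.9 FPKM to 3.04 to 4.17 FPKM (log2 fold change −1.63). Spindle and kinetochore genes were among the calls, with *Ckap2l* at −1.45, *Spc25* at −1.52, the kinesin gene *Kif18b* at −1.47 and *Tpx2*, the activator of Aurora A kinase, at −1.64. So were *Cdca3* at −1.85, *Pbk* at −1.43, *Ccnb1* (cyclin B1) at −1.33 and *Cdk1*, the kinase that drives entry into mitosis, at −1.18. *Aurka*, Aurora A kinase itself, was at 2.18 to 2.95 FPKM at 18 months and 4.15 to 7.99 FPKM at 3 weeks, with a log2 fold change of −0.91 that was not called (adjusted p = 0.0869 from limma). The single member above 0 was *Pttg1*, securin, which restrains the separation of sister chromatids until anaphase, at 45.4 to 58.0 FPKM and 32.9 to 37.1 FPKM (log2 fold change 0.56, adjusted p = 0.0712 from limma). Its samples did not overlap either, in the opposite direction.

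Promoters of mitotic genes share short motifs, the CHR element, through which they are repressed outside late cell cycle phases, and CCAAT boxes, which bind the activator NF-Y, and they are shown here because these genes moved together. RefSeq promoters (build GRCm38.p6, 250 bases ahead of the start and 50 after it, the first listed start of each gene) were matched for 8657 of the 12287 tested genes and for 45 of the 53 mitosis genes. The CHR letters TTTGAA, on either strand, stood in 28 of these 45 (62.2%), in 22 of the 27 matched members called lower (81.5%) and in 11.2% of all matched promoters. CCAAT, on either strand, stood in 32 of the 45 (71.1%) and in 38.6% of all, and both stood in 26 of the 45 (57.8%) and in 4.72% of all. A match of letters is not evidence of binding. Among called genes with both motifs ahead of the start, with those of 1 chromosome left aside, the 3 with the smallest adjusted p were *Ube2c* (chr2:164769679-164769928, plus strand), *Ckap2l* (chr2:129297213-129297462, minus strand) and *Top2a* (chr11:99024190-99024439, minus strand). Their 250 bases ahead of the start are given 5′ to 3′ on the gene's strand, with both motifs in capitals (TTTGAA or its complement TTCAAA, and CCAAT or its complement ATTGG, which overlap where they run together).
Ube2c: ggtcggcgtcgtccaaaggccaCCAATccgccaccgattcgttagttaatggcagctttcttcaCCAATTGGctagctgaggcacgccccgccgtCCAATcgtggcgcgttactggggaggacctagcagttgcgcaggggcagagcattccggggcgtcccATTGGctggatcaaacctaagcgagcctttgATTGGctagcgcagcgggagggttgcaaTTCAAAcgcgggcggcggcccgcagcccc
Ckap2l: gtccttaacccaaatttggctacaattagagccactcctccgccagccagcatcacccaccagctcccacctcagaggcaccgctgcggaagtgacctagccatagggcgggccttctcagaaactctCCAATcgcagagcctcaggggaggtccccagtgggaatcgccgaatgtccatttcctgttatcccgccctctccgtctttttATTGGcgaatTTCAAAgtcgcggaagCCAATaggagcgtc
Top2a: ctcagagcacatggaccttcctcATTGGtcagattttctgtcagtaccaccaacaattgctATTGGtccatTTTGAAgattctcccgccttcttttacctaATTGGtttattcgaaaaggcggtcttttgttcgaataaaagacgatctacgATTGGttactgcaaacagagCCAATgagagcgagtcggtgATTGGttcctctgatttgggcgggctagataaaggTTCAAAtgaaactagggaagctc
The 250 bases of *Ube2c* and of *Ckap2l* hold a single CHR match each, with CCAAT matches upstream of it, and in *Ckap2l* also 1 downstream. *Top2a*, the topoisomerase that untangles sister chromatids, holds 2 CHR matches.

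DNA replication genes were lower to a smaller extent. Of 30 tested members 10 were called lower and none higher, with a median log2 fold change of −0.54. The left-out counts were 6, 3, 5, 2, 1 and 2, all below the 10 of the full set. *Mcm2*, a subunit of the replicative helicase, was at 4.12, 3.96 and 3.31 FPKM at 18 months and at 9.12, 9.87 and 9.43 FPKM at 3 weeks (log2 fold change −1.13). *Mcm3* and *Mcm6*, of the same helicase, changed by −1.0 and −0.87, *Mcm10*, which starts replication, by −1.25, *Cdc45*, which activates the helicase, by −0.98, and *Dtl*, a component of a ubiquitin ligase of S phase, by −0.70. *Rrm2*, the regulated subunit of ribonucleotide reductase, had the largest decline, from 13 to 14.4 FPKM to 1.58 to 4.26 FPKM (log2 fold change −1.85). *Rpa2*, a single-strand DNA binding protein, was the one member above 0 (0.25, not called). *Mcm4* and *Mcm5* were not analysed here. In the 25 matched promoters of this list TTTGAA stood in 5 (20%) and CCAAT in 14 (56%), and in the 9 of called members in 2 (22.2%) and 7 (77.8%), with no test against mitosis.

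Chromatin genes of dividing cells were called in 5 of 25, all lower (left-out counts 5, 1, 1, 1, 1 and 2). *Uhrf1*, which carries DNA methylation through replication, fell from 6.60 to 9.55 FPKM to 1.94 to 2.63 FPKM (log2 fold change −1.46). *Ezh2*, the Polycomb histone methyltransferase, changed by −1.0 and the histone variant gene *H2afv* by −1.18, whereas *H2afz*, of the same variant class, was at 0.70 and not called. Of 13 genes of cell cycle exit, *Rbl1*, a retinoblastoma-like repressor, was called lower (−0.58), and *Tob1*, an antiproliferative gene, was listed at 0 in all samples of 3 weeks and at 4.05, 6.12 and 27.3 FPKM at 18 months. The inhibitors *Cdkn1a* and *Cdkn1b* had log2 fold changes of −0.03 and −0.15 with adjusted p of 0.952 and 0.835 (limma), and *Cdkn2a*, a senescence marker, was below 0.4 FPKM in every sample.

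Replication-dependent histone genes, most of which have 1 annotated exon and near-identical copies, moved both ways and are uncertain one by one. Of 30 tested, 7 were called lower (left-out counts 7, 3, 6, 5, 3 and 3) and 3 higher. *Hist1h2ap*, an H2A copy, was at 28.6, 16.6 and 14.9 FPKM at 18 months and at 101, 92.3 and 124 FPKM at 3 weeks (log2 fold change −2.39). *Hist1h2ac* was listed at 0 at 18 months and at 20.6 to 25.4 FPKM at 3 weeks, while *Hist1h2ai*, another H2A copy, was listed at 0 at 3 weeks and at 5.45 to 8.54 FPKM at 18 months. *Hist2h2be* (listed at 0 at 18 months) and *Hist1h2af* (listed at 0 at 3 weeks) also went opposite ways. Summed over 19 genes, H2A reached 54.0 to 115 FPKM at 18 months and 270 to 374 at 3 weeks, without overlap, whereas 17 H2B genes summed to 97.8 to 121 and 98.2 to 109 FPKM, with overlap. The ages also overlapped in the sums of 12 H3 genes (1.27 to 2.11 and 1.96 to 6.28 FPKM), 13 H4 genes (10 to 17.9 and 6.95 to 14.3 FPKM) and 6 H1 genes (0.511 to 26.5 and 13.3 to 19.2 FPKM).

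Neural stem and progenitor genes were lower in 9 of 35 and higher in 1, with a median log2 fold change of −0.58. *Gsx2*, a homeobox factor of ganglionic eminence progenitors, was at 0.606, 0.476 and 0.673 FPKM at 18 months and at 2.59, 2.5 and 2.68 FPKM at 3 weeks. No sample of the old group came near the young group, and the log2 fold change was −1.18 (standard error 0.1, adjusted p = 0.00563 from limma). *Mycn*, a driver of progenitor growth, fell by 1.15 on the log2 scale. *Pax6*, the dorsal patterning factor, changed by −0.84, *Msi1*, an RNA-binding protein of progenitors, by −1.07, and *Tnc*, a matrix glycoprotein of the niche, by −1.05. *Olig2* (2 exons) was listed at 0 in all samples of 18 months and at 10.3, 10.7 and 59.6 FPKM at 3 weeks. *Hopx*, a homeodomain protein gene known from quiescent stem cells, was the member called higher, at 18.7 to 22.2 FPKM against 3.19 to 7.48 FPKM (log2 fold change 1.72). *Egfr* and *Nes*, the receptor and the intermediate filament of activated stem cells, were at −0.58 and −0.72 and were not called (adjusted p = 0.128 and 0.15 from limma). The left-out counts called lower were 11, 3, 5, 6, 2 and 6, and *Hopx* stayed called only without replicate 1 of 3 weeks.

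Neuroblast genes were called lower in 7 of 32 (left-out counts 8, 5, 6, 5, 5 and 5) and higher in 1 (median log2 fold change −0.38, and −0.58 without replicate 2 of 3 weeks). *Dlx2* and *Dlx1*, the homeobox factors of olfactory interneuron precursors, which lie next to each other on chromosome 2, fell together. *Dlx2* was at 16.3, 12.2 and 11.1 FPKM at 18 months and 38.7, 45.8 and 51.1 FPKM at 3 weeks (log2 fold change −1.71, adjusted p = 0.011 from limma), and *Dlx1* at 14.4 to 16.6 FPKM and 38.0 to 39.0 FPKM (−1.26). *Dcx*, the microtubule protein of migrating neuroblasts, fell from 8.87 to 10.7 FPKM to 4.02 to 5.41 FPKM (−0.96). *Marcksl1*, a membrane and actin regulator of immature neurons, had the largest decline of the list, from 316 to 387 FPKM to 60.5 to 92.6 FPKM (−2.25), followed by *Dpysl3*, a growth cone protein (−1.68). Neuronal tubulin *Tubb3*, which mature neurons express too, changed by −0.60. The exception was *Tubb5*, a beta-tubulin gene with near-identical relatives, which rose from 49.7 to 60.0 FPKM to 181 to 204 FPKM (log2 fold change 1.86, adjusted p = 0.002 from limma). *Sox4* and *Sox11*, which have 1 exon each, varied within an age from 0 to 38.1 and from 2.37 to 36.2 FPKM and were not called.

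**Figure D3:**
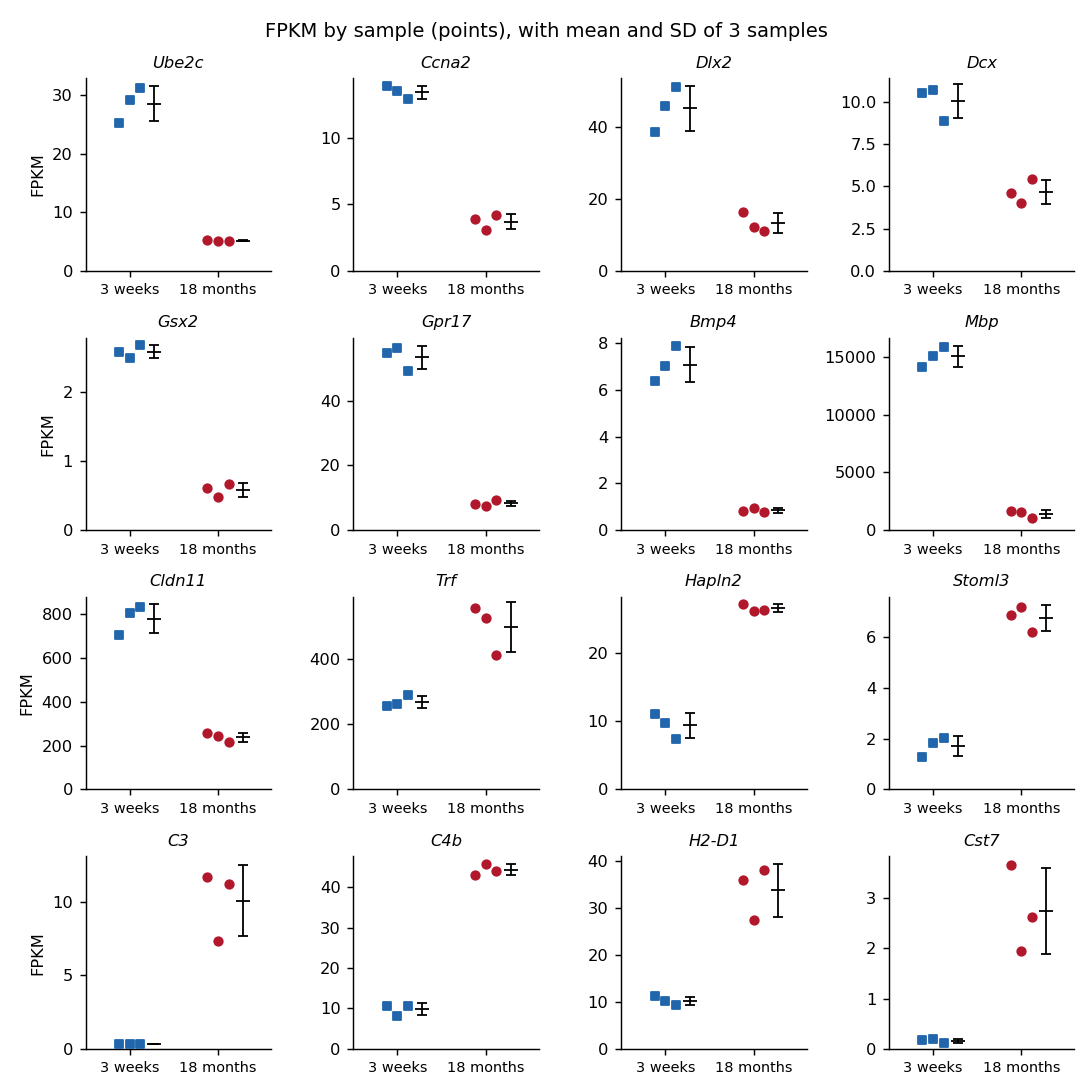
FPKM (y axis, from 0) of 16 genes in each sample of 3 weeks (blue squares) and 18 months (red circles), with the mean and SD of 3 samples as a bar beside them. In every panel the ages do not overlap, and *Mbp* has the highest values, at 14162 FPKM or more in each sample of 3 weeks.

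The oligodendrocyte lineage was described by stage. Of 22 genes of oligodendrocyte progenitors 3 were called lower (left-out counts 2, 1, 1, 1, 1 and 2) and 1 higher, and *Pdgfra*, the growth factor receptor that defines these cells, was at 7.46 to 8.50 FPKM at 18 months and 8.09 to 9.19 FPKM at 3 weeks (log2 fold change −0.13, adjusted p = 0.54 from limma). *Sulf1*, a heparan sulfatase, was the one called higher (1.41). Genes of newly formed oligodendrocytes, the short-lived stage between progenitor and myelinating cell, were below 0 in 20 of 21 members, with 6 called lower, none called higher and a median log2 fold change of −0.68. The left-out counts were 5, 5, 5, 6, 5 and 6. In 16 of the 21 the ages did not overlap, all of them lower, against 12.2% of all tested genes.

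*Gpr17*, a receptor gene that is switched on only in that intermediate stage and has 2 exons, was at 8.05, 7.56 and 9.23 FPKM at 18 months and at 54.6, 56.2 and 49.3 FPKM at 3 weeks (log2 fold change −2.55, standard error 0.12, adjusted p = 0.000742 from limma). *Bmp4*, a morphogen also made by these cells, fell from 6.36 to 7.87 FPKM to 0.769 to 0.956 FPKM (−2.13). *Cnksr3* changed by −1.60, *Arpc1b*, of the actin-nucleating Arp2/3 complex, by −1.52, *Mpzl1* by −1.27 and *Fyn*, the kinase that starts myelination, by −0.91. Not all genes of the stage followed, since *Bcas1* was at 341 to 393 FPKM and 350 to 416 FPKM (log2 fold change −0.09, not called) and *Enpp6* at −0.68 was not called (adjusted p = 0.0828 from limma).

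Myelin genes were split. Of 43 members 7 were called lower and 5 higher, with a median of −0.22 that was −0.36 without replicate 2 of 3 weeks. The left-out counts were 5, 5, 5, 5, 5 and 7 lower and 3, 1, 3, 2, 0 and 3 higher, so that no higher call was left without replicate 2 of 3 weeks. *Mbp*, myelin basic protein, which compacts the sheath, was at 1688, 1533 and 1038 FPKM at 18 months and at 14162, 15125 and 15906 FPKM at 3 weeks. All 3 old samples were far below the young ones, and the log2 fold change was −3.44 (standard error 0.20, adjusted p = 0.00164 from limma). It made up 4.73% to 4.99% of all FPKM in the samples of 3 weeks and 0.349% to 0.563% in those of 18 months, and FPKM of the other genes are relative to totals that include it.

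Other structural myelin genes fell by less. *Cldn11*, the tight junction protein of myelin, was at 257, 242 and 216 FPKM at 18 months and 704, 803 and 829 FPKM at 3 weeks (−1.70). *Mog*, a glycoprotein of the sheath's surface, changed by −1.16, *Mobp* by −0.79 and *Cnp* by −0.74. *Gsn*, the actin-severing protein gelsolin, changed by −1.37. Other members of the list were higher. *Trf*, transferrin, rose from 255 to 288 FPKM to 412 to 555 FPKM (0.88), *Hapln2*, the link protein of nodes of Ranvier, from 7.45 to 11.0 FPKM to 26.1 to 27.2 FPKM (1.42), *Klk6*, a myelin-associated protease, from 4.02 to 6.37 FPKM to 19.1 to 27.7 FPKM (2.07), and *Ptgds*, prostaglandin D synthase, which leptomeninges express strongly too, from 51.6 to 119 FPKM to 305 to 473 FPKM (2.48). *Il33*, an alarmin cytokine of oligodendrocytes, had the largest difference of the list in that direction, at 16.5, 64.6 and 67.9 FPKM against 5.15 to 6.16 FPKM, and was not called (log2 fold change 2.71, adjusted p = 0.0546 from limma). *Myrf*, the master regulator of myelin genes, was at 35.4 to 36.9 FPKM and 27.4 to 45.9 FPKM (−0.03, not called).

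Cholesterol synthesis, which supplies growing myelin, was called lower in 4 of 19 genes (left-out counts 3, 1, 4, 2, 1 and 1) and higher in none (median −0.50, and −0.78 without replicate 3 of 18 months), and 16 of the 19 were below 0. *Fdps*, farnesyl diphosphate synthase, was at 31.9, 33.6 and 38.2 FPKM at 18 months and at 65.3, 75.6 and 68 FPKM at 3 weeks (−0.99, adjusted p = 0.0136 from limma). *Nsdhl* and *Idi1*, further enzymes of the pathway, changed by −1.03 and −1.34.

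Ependymal and motile cilium genes were shifted upward by a small amount. Of 65 members 6 were called higher and none lower (9.23% called), 55 were above 0, and in 33 all samples of 18 months exceeded all those of 3 weeks, against 20.9% of all tested genes, while none showed the reverse. The left-out counts were 5, 1, 1, 3, 1 and 1, so the calls depended on the samples. The median log2 fold change was 0.37, from 0.33 to 0.40 when each sample was left out, 0.46 under TPM scaling and 0.29 under quantile normalization. *Stoml3*, a stomatin-like protein of cilia, was at 6.90, 7.21 and 6.20 FPKM at 18 months and at 1.28, 1.85 and 2.04 FPKM at 3 weeks (1.52, adjusted p = 0.00864 from limma). *Cfap46*, of the central apparatus of the axoneme, rose from 0.975 to 1.56 FPKM to 3.62 to 4.31 FPKM (1.17) and *Dnaic2*, an outer dynein arm subunit, from 4.83 to 6.14 FPKM to 10.1 to 12.3 FPKM (0.98). *Iqca*, *Zmynd12* and *Armc3* changed by 0.84, 0.86 and 0.73. *Foxj1*, the factor that switches on these genes, had a log2 fold change of −0.05 (adjusted p = 0.876 from limma).

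Astrocyte genes had no call in 32 members (median 0.17, and 0.09 without replicate 2 of 18 months), and 1 was called higher without replicate 1 of 18 months. *Aldh1l1*, a pan-astrocyte enzyme, was at 23.9 to 30.5 FPKM and 22.8 to 27.1 FPKM (0.14), and *Gfap*, the astrocyte filament, ranged from 103 to 258 FPKM at 18 months and from 49.0 to 244 FPKM at 3 weeks, so that its samples overlapped. Genes known from reactive astrocytes, by contrast, were called higher in 7 of 18 (left-out counts 7, 4, 6, 3, 3 and 3) and lower in none (median 0.58). *Serpina3n*, an acute phase protease inhibitor, was at 20.2, 16.2 and 13.5 FPKM at 18 months and at 5.09, 5.66 and 7.02 FPKM at 3 weeks (1.34). *Ggta1*, a galactosyltransferase, changed by 1.07, and the remaining calls of the list were *Tm4sf1* (0.93), *C4b*, *H2-D1*, *H2-T23* and *Psmb8*, which other lists hold too. *Vim*, vimentin, was at 0.21 and not called (adjusted p = 0.291 from limma).

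Microglial genes were described as those of identity and those of activation. Of 37 homeostatic genes 2 were called, both higher (5.41%, near the 4.92% of all tested genes). The left-out counts were 2, 1, 0, 0, 0 and 0 higher and 1, 1, 0, 0, 0 and 0 lower, and the median of 0.18 was 0.09 without replicate 1 of 18 months and 0.08 without replicate 3 of 3 weeks. *Tmem119*, which marks resident microglia, was at 18.4 to 20 FPKM at 18 months and 23.5 to 24.2 FPKM at 3 weeks (−0.28), and *P2ry12*, their purinergic receptor, at 9.52 to 11.8 FPKM and 10.7 to 29.8 FPKM (−0.64), neither of them called. *Ctss*, the lysosomal protease cathepsin S, rose from 60.2 to 70.7 FPKM to 114 to 140 FPKM (0.95), and *Itgb2*, an integrin of leukocytes, by 1.01 on the log2 scale.

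Of 29 genes of activated microglia 7 were called higher (left-out counts 6, 2, 3, 1, 1 and 2) and none lower (median 0.59), and in 18 the ages did not overlap, all of them higher, against 20.9% of all tested genes. *Cst7*, the cystatin that marks disease-associated microglia, was at 3.65, 1.95 and 2.62 FPKM at 18 months and at 0.166, 0.197 and 0.106 FPKM at 3 weeks (log2 fold change 1.67, adjusted p = 0.0114 from limma). *Itgax*, the integrin CD11c, rose from 0.135 to 0.270 FPKM to 1.17 to 1.77 FPKM (0.98), *Clec7a*, a receptor for fungal glucans, by 0.99, *Tlr2* by 0.86, *Capg*, an actin-capping protein, by 1.14, and *Spp1*, osteopontin, by 1.97 on the log2 scale, and the last call was *H2-D1*, an MHC class I chain. *Cst7* and *Itgax* passed the FPKM limit only through the samples of 18 months, where they were high. *Lpl*, lipoprotein lipase, was at 7.30, 24.9 and 23.2 FPKM and 13.5 to 15.1 FPKM and was not called (0.17). Lysosomal genes were called higher in 3 of 37 (left-out counts 5, 1, 1, 0, 0 and 1, median 0.28), which were *Gaa*, acid alpha-glucosidase, *Ctss*, and *Manba*, beta-mannosidase, at 2.27 to 2.75 FPKM against 1.16 to 1.18 FPKM (0.69). Genes of T cells, B cells, border macrophages and neutrophils were mostly too low to test. Of 31 such genes 22 stayed under 1 FPKM in every sample. Together they summed to 47.9 to 74.9 FPKM at 18 months and 58.9 to 69.1 FPKM at 3 weeks, with overlap. *Cd3e*, of the T cell receptor complex, was at 0.125 to 0.388 FPKM at 18 months and 0.0331 to 0.038 FPKM at 3 weeks. It was too low to test and does not stand for the list.

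MHC class I and peptide loading genes, which display peptides on the cell surface, had the highest median of the lists with 10 or more tested members (0.68). Of 20 members 8 were called higher and none lower. The left-out counts were 6, 3, 4, 2, 2 and 3. The class I chains share sequence, so reads may have been split between them. *H2-K1*, a classical heavy chain, was at 17.8, 27 and 38.4 FPKM at 18 months and at 7.94, 6.82 and 7.39 FPKM at 3 weeks (1.72), *H2-D1*, the other classical chain, at 27.4 to 38.1 FPKM and 9.43 to 11.2 FPKM (1.62), and *H2-T23*, a nonclassical chain, changed by 1.49. *Psmb8* and *Psmb9*, the immunoproteasome subunits that are not near-identical to other genes, changed by 1.27 and 1.20, *Tap2*, of the peptide transporter, by 0.77 and *Canx*, the chaperone calnexin, by 1.5. Of 36 interferon response genes 3 were called higher (8.33%, median 0.55, left-out counts 3, 2, 1, 0, 0 and 0), namely *Psmb8*, *Xaf1*, a proapoptotic interferon-induced gene, from 1.49 to 2.24 FPKM to 5.55 to 8.31 FPKM (1.40), and *Irf1*, the transcription factor of this response (0.84). *Ifit1* and *Ifit3b*, which interferon induces strongly, varied within an age from 0.0432 to 4.31 FPKM and from 0 to 15.1 FPKM and were not called. The letters GAAANNGAAA of the interferon-stimulated element, on either strand, stood in 12 of 31 matched promoters of this list (38.7%), in 4 of 16 of the class I list (25.0%) and in 2.78% of all, but in none of the 3 called interferon genes.

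Complement genes were called higher in 3 of 16 (median 0.43, and 0.28 without replicate 2 of 3 weeks, left-out counts 3, 2, 3, 2, 2 and 2). *C3*, the central component, was at 11.7, 7.33 and 11.2 FPKM at 18 months and at 0.318, 0.321 and 0.325 FPKM at 3 weeks (3.05). *C4b*, which acts just before it in the classical pathway (chromosome 17, 34728380 to 34743882), was at 43.0, 45.7 and 44.1 FPKM and 10.6, 8.10 and 10.7 FPKM (2.08), and its near-identical neighbour *C4a* at 10.1 to 16.7 FPKM and 3.43 to 4 FPKM (1.55), a pair between which reads may have been split. Of the initiators, *C1qc* was at 34.8 to 39.7 FPKM and 23.2 to 28.3 FPKM (0.49, adjusted p = 0.0816 from limma), without overlap and not called.

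**Figure D4:**
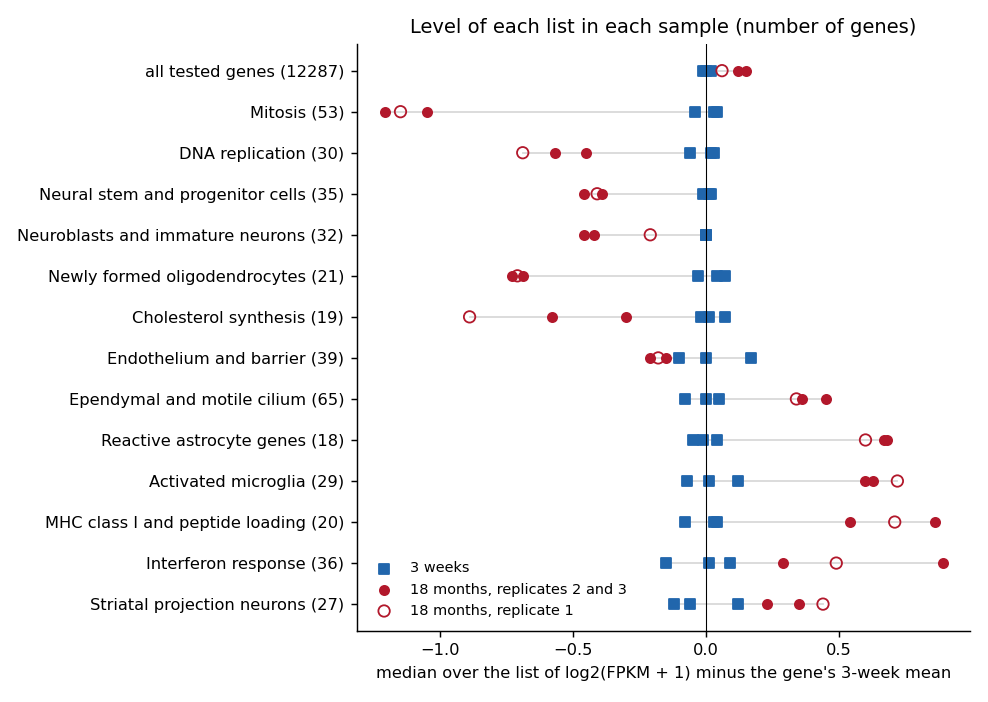
Median over each list (y axis, with the number of genes) of log2(FPKM + 1) minus the gene's mean at 3 weeks (x axis), in each sample of 3 weeks (blue squares) and 18 months (red circles, with replicate 1 open). Replicate 1 of 18 months lies with the other samples of its age for mitosis (−1.15) and newly formed oligodendrocytes (−0.71) and is nearest to 0 for neuroblasts (−0.21).

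Replicate 1 of 18 months stood apart over all genes, and its place differed from list to list. Its median shift from the 3-week mean was −1.15 for mitosis, where replicates 2 and 3 had −1.21 and −1.05. For newly formed oligodendrocytes it was −0.71 beside −0.73 and −0.69, and for activated microglia 0.72 beside 0.63 and 0.60. It lay farthest from the young samples for cholesterol synthesis, at −0.89 beside −0.58 and −0.30, and nearest to them for neuroblasts, at −0.21 beside −0.46 and −0.42. In other lists it lay close to the 3-week mean where the others of its age did not, at 0.02 beside 0.25 and 0.23 for astrocytes, −0.01 beside 0.35 and 0.32 for the choroid plexus and −0.06 beside −0.25 and −0.17 for myelin. Without it 400 of all 605 calls stayed called. So did 120 of the 142 called genes picked for naming, largely for a small adjusted p or a large change, not all of which are printed here. Among those no longer called were *Cldn12* (adjusted p = 0.0687 from limma) and *Cdr2l* (0.081) of the 15 largest declines. Further ones were *Dcx* (adjusted p = 0.0505 from limma), *Olig2* (0.0578), *Ptgds* (0.0532), *Mog* (0.0527), *Fyn* (0.0766), *Idi1* (0.0802), *Clec7a* (0.0554), *Col1a2* (0.0532), *Tnr* (0.0576), *Lef1* (0.0782), *Notum* (0.0618), *Bmp7* (0.0640), *Dclk3* (0.0658) and *Plk3* (0.0687). Each kept its direction. *Il33* was then called (log2 fold change 3.36, adjusted p = 0.00116 from limma), and so was *Lpl* (0.70, adjusted p = 0.0390 from limma).

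Matrix genes moved in both directions. Of 30 genes of collagen processing and fibrillar matrix 7 were called lower (left-out counts 6, 2, 2, 1, 1 and 1) and 3 higher (2 without any 1 sample), with a median of −0.25. *Mmp15*, a membrane-bound metalloprotease, fell from 12 to 14.5 FPKM to 2.04 to 2.92 FPKM (−1.99), *Mfap2*, a microfibril protein, by 1.42 on the log2 scale, *Serpinh1*, the collagen chaperone HSP47, by 1.08 and *Fbln2*, fibulin 2, by 1.02. *Efemp1*, fibulin 3, was opposite, at 10.3, 12.1 and 11.1 FPKM at 18 months and 1.63, 1.74 and 1.74 FPKM at 3 weeks, with almost no spread within an age (2.17, standard error 0.11, adjusted p = 0.00125 from limma), and *Pcolce2*, an enhancer of procollagen cleavage, changed by 1.17. Of 17 collagens *Col1a2* was called lower (−0.77) and *Col6a5* higher (0.76), and of 15 laminins and other basement membrane genes none was called (2 were lower without replicate 1 of 18 months). Among 12 genes of brain lecticans and perineuronal nets, *Tnc* and *Tnr*, both tenascins, were lower (−1.05 and −0.72) and *Hapln2* higher.

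Among 39 endothelial genes 2 were called lower (5.13%, near the 4.92% of all tested genes, median −0.22), with left-out counts of 1, 0, 1, 0, 0 and 1. They were *Mfsd2a*, the lipid transporter of the blood-brain barrier, from 19.5 to 27.1 FPKM to 8.67 to 10.4 FPKM (−1.29), and *Lef1*, a Wnt effector (−0.87). The 8 erythrocyte genes summed to 446 to 726 FPKM at 18 months and 850 to 951 FPKM at 3 weeks, and *Hbb-bt*, a beta-globin with near-identical relatives, was at 62.0 to 101 FPKM and 189 to 216 FPKM (−1.40). The part of residual blood in the other results was not tested. No pericyte gene was called in 14 (median 0.06, from 0.0 to 0.17 with 1 sample left out).

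Morphogen pathways had calls in 9.09% of Notch genes, 8% of Wnt genes and 14.3% of BMP and TGF-beta genes, against 4.92% of all tested genes, each resting on 3 genes or fewer. The left-out counts called lower were 2, 0, 0, 0, 0 and 0 for Notch, and for Wnt 0 without any 1 sample. For BMP and TGF-beta they were 1, 2, 1, 1, 1 and 1 lower and 1, 0, 0, 0, 0 and 0 higher. Of 22 Notch genes 2 were lower, *Dll3*, a ligand that blocks the receptor in the same cell (−1.10), and *Mfng*, a sugar transferase that tunes the receptor (−0.67), while *Notch1* itself was at −0.46 and not called (adjusted p = 0.147 from limma). Of 25 Wnt genes *Notum*, a secreted Wnt inhibitor, and *Lef1* were lower (−0.89 and −0.87). In the BMP and TGF-beta list *Bmp4* fell as above, whereas *Bmp7*, another ligand, and *Tgfbr3*, a coreceptor, rose by 0.70 and 0.73 on the log2 scale. No member of the hedgehog list was called in 9. Among 14 genes of the insulin-like growth factor system *Igfbp6*, a binding protein that prefers IGF2, rose from 3.40 to 4.96 FPKM to 10.1 to 14.6 FPKM (1.28) and *Igf2bp2*, an RNA-binding protein of fetal tissue, fell (−0.74). *Igf2*, an imprinted growth factor, was at 4.29 to 9.69 FPKM and 12 to 22.6 FPKM without a call (−1.15, adjusted p = 0.128 from limma), and no imprinted gene was called in 25 (median 0.19).

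Genes of mature neurons were called in 3.7% of the striatal, 8.33% of the cortical and 4.65% of the synaptic list, against 4.92% of all tested genes. The left-out counts of the striatal list were 2, 0, 0, 2, 0 and 0 higher and 1, 0, 0, 0, 0 and 1 lower. Those of the cortical list were 1, 1, 1, 0, 0 and 0 higher and 2, 0, 0, 0, 0 and 0 lower. In the synaptic list they were 3, 1, 1, 0, 0 and 0 higher. Of 27 striatal genes *Dclk3*, a kinase, was higher (0.79), of 12 cortical genes *Rasgrf2*, an exchange factor for Ras (1.15), and of 43 synaptic and neurofilament genes *Sv2c*, a vesicle protein of the basal ganglia (1.05), and *Syn2*, synapsin 2 (0.63). None was called in 17 genes of interneurons and septal neurons (median 0.21, and 0.12 without replicate 2 of 3 weeks) or in 17 NMDA and GABA-A receptor subunits (median 0.35, and 0.21 without replicate 1 of 18 months), although 2 receptor subunits were higher without replicate 1 of 18 months. *Ppp1r1b* itself had a log2 fold change of 1.27 that was not called (adjusted p = 0.1 from limma). Under TPM scaling and quantile normalization the striatal median of 0.29 was 0.33 and 0.25.

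Of the stress and activity lists, calls were made in 1 of 25 immediate early genes (4%), 2 of 12 glucocorticoid response genes (16.7%) and 2 of 16 genes of the p53 response and senescence (12.5%), against 4.92% of all tested genes. *Atf3*, a stress-induced transcription factor, was called higher among 25 immediate early genes, from 0.879 to 1.23 FPKM to 3.33 to 5.02 FPKM (1.34), while *Fos* ranged from 13.4 to 27.8 FPKM and from 4.15 to 18.8 FPKM and was not called. *Sgk1*, a kinase that glucocorticoids induce and that oligodendrocytes express, rose from 24.6 to 33.9 FPKM to 82.2 to 120 FPKM (1.72) and *Plin4*, a lipid droplet protein, from 0.181 to 0.378 FPKM to 1.37 to 3.03 FPKM (1.33), but *Fkbp5*, a further target of the glucocorticoid receptor, was at 0.02. No call was made in 18 circadian genes or in 24 heat shock and unfolded protein response genes (1 was called without replicate 1 of 18 months). Of 16 genes of the p53 response and senescence 2 were lower, *Plk3*, a stress kinase (−1.02), and *Lmnb1*, lamin B1 of the nuclear lamina (−0.84). Among housekeeping sets, 1 of 60 cytosolic ribosomal protein genes was called, *Rpl30* (0.66), with a median of 0.32. Without replicate 1 of 18 months 14 were higher and 1 lower. None of 65 nuclear-encoded respiratory chain genes was called (median 0.10, and 0.05 without replicate 2 of 18 months), and without replicate 1 of 18 months 1 was lower and 2 higher. In the lists with no call by limma, members at an unadjusted p under 0.05 were 3 of 32 for astrocytes, 8 of 25 for imprinted genes, 2 of 9 for hedgehog, 7 of 15 for laminins and basement membrane, 2 of 14 for pericytes, 4 of 17 for interneurons and septal neurons, 5 of 17 for receptor subunits, 3 of 18 for circadian genes, 3 of 24 for heat shock genes and 10 of 65 for the respiratory chain, against 2990 (24.3%) of all tested genes.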

How the data were processed

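RNA of 6 SVZ tissue samples was measured by sequencing. The authors deposited 1 table of FPKM per gene, and per the labels' processing notes HISAT2, StringTie and featureCounts were used with build GRCm38, versions not given in the sources used here. No read counts were analysed here, so the DESeq2 test of the study's methods was not applied. limma 3.58.1 (R 4.3.3, trend) was fitted with age as the only term to log2(FPKM + 1) of 12287 genes with FPKM of at least 1 in 3 samples, and called genes had a Benjamini-Hochberg adjusted p under 0.05. The procedure was tested on simulated data. Tables and plots were made with Python 3.11.15, pandas 2.3.3, numpy 2.4.6 and matplotlib 3.10.9. GENCODE M21 gave coordinates, biotypes and exons for 36066 of 36358 genes. Exons were counted over all transcripts of a gene. Depth was estimated from the FPKM steps of low genes, of whose values 51.1% to 53.0% lay within 0.02 of a whole number of fragments.

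The gene lists and members were chosen with earlier results of these data known. Genes were picked for naming by the following rule, and not all of them appear in the text. They were the 15 largest changes each way among called protein-coding genes with no zero, the up to 6 members of each list with the smallest adjusted p, the largest contrary member, the first 5 members as written, genes the study showed for tissue, and genes listed at 0 in 1 age and at 3 FPKM or more in the other. *Tpx2*, *Top2a*, *Rrm2*, *Pax6*, *Tubb3*, *Cnp*, *Trf*, *Myrf*, *Tm4sf1*, *Tlr2*, *Tap2*, *Cdkn2a*, *Cd3e*, *Olig1* and *Eif2s3y* were chosen outside this rule after their values were seen. Alternatives changed the pseudocount, the filters, the scaling, the call limits, the replicate term and the samples. The 22 single cells of the series were not used here. Some genes of the lists are counted but not reported here by name.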

Additional observations from a re-analysis of the deposited data

How the results depend on the processing

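No gene among the 605 calls changed sign under any alternative run. Calls numbered 530 with a pseudocount of 0.1, 571 (251 lower, 320 higher) under TPM scaling, 591 (346 lower, 245 higher) under quantile normalization, 581 among protein-coding genes, 670 among genes above 0 in all samples, 605 (280 lower, 325 higher) among genes with more than 1 exon, an alternative chosen after seeing the data, and 479 at an unadjusted p under 0.05 with an absolute log2 fold change above 1. Without a filter on low values there were 414 calls, 213 lower and 201 higher, of which 304 were shared. Leaving out 1 sample gave 134 to 719 calls, 75 to 320 lower and 59 to 399 higher, and 117 to 400 of the 605 calls stayed called. Of the 142 called genes picked for naming, largely for a small adjusted p or a large change, 60 to 120 stayed called. No label says that a replicate number marks a shared animal, litter or day. Same-numbered samples deviated from the means of their ages with r = −0.0963, −0.0107 and −0.098. With 3 samples per age these values cannot tell whether the samples were paired. A fit with the replicate block, which has 2 residual degrees of freedom, made 17 calls, 13 lower and 4 higher. The spread between 3 samples per age and the unstable values of genes with few exons limit what single genes show, and the counting error behind FPKM was not modelled.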

Other observations

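Some called genes outside the lists, chosen because of their values, are given one by one and stand for no group. *Sirt2*, a tubulin and histone deacetylase of myelin, was at 74.4, 74.2 and 70.1 FPKM at 18 months and 218, 258 and 214 FPKM at 3 weeks (log2 fold change −1.64, adjusted p = 0.0023 from limma). *Elovl1*, which elongates very long chain fatty acids, fell from 55.5 to 60.9 FPKM to 20.9 to 27.2 FPKM (−1.29), *Gltp*, a glycolipid transfer protein, from 121 to 138 FPKM to 57.5 to 73.2 FPKM (−1.03), and *Cers2*, a ceramide synthase, from 107 to 119 FPKM to 62.4 to 67.5 FPKM (−0.81). The 2 enzymes of creatine synthesis went opposite ways, with *Gamt* at −1.25 and *Gatm*, the step before it, at 0.74, both called.

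Values of the neighbouring complement genes *C1qa* and *C1qb* on chromosome 4 (136895917 to 136898803 and 136880129 to 136886187, GRCm38) varied in opposite directions within the samples of 18 months. *C1qa* was at 160, 29.2 and 143 FPKM where *C1qb* was at 26.9, 154 and 28.1 FPKM. Their sums were 187, 183 and 171 FPKM, which differ far less than either gene. At 3 weeks *C1qa* was at 86.0, 10.9 and 94.4 FPKM and *C1qb* at 101, 103 and 127 FPKM, without that pattern. The cause was not tested.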
